A study of Gossypium hirsutum with 6 samples.

Results

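A set of 200 gene models was followed whose mRNA was lowest in fibers at 14 DPA (days post anthesis), intermediate in ovules at 0 DPA and highest in young leaves of allotetraploid cotton, out of 77357 models in the expression table. Values were FPKM (fragment counts divided by the length of the model and by the mapped total of the library), and 1 FPKM was added to each tissue mean before ratios were taken. A model was kept if the leaf over ovule ratio lay between 2.5 and 10, the ovule over fiber ratio was at least 2.5, both fiber libraries lay below both ovule libraries, and both ovule libraries lay below both leaf libraries. These conditions were met by 699 models, which were ranked by the smaller of the 2 ratios, and the 200 highest were taken. The members were thus selected on both ratios and on the order of all 6 libraries, so their FPKM values are given as a description and without a test.

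The plants were Gossypium hirsutum TM-1, which carries an A and a D subgenome, grown in a greenhouse without a treatment or transgene. Fibers had been dissected from bolls at 14 DPA, ovules had been collected on the day of flowering (0 DPA), and the leaves were labelled young, with no age given. Each tissue had 2 libraries, labelled as biological replicates, so 6 libraries of strand-specific, single-end mRNA-seq were available. The 3 tissues are not a course in time.

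Young leaves are photosynthetic organs made of many cell types. The ovule on the day of flowering is a whole organ with integuments, nucellus and embryo sac, and its surface already carries epidermal cells that start to grow out. Each fiber is a single such epidermal cell, which elongates and lays down cell wall and is not a photosynthetic cell. In these bulk samples, fewer cells of a type and less RNA per cell cannot be told apart.

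The models carried identifiers of 2 kinds, Cotton_A and Gorai, called A-genome and D-genome models here, going by that prefix only. When all 77357 identifiers were looked up in the RefSeq table for Gossypium hirsutum, 0 matched an entry, so members are given by identifier, without gene names, functions, coordinates or sequences. For the same reason the tissue labels were not checked against marker genes.

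Members covered a wide range of levels, with 116 of 200 under 1 FPKM on average in fiber. The median member had 0.869 and 0.681 FPKM in the fiber libraries, 11.4 and 11.7 FPKM in the ovule libraries and 69.6 and 72.1 FPKM in the leaf libraries. A level of 10 FPKM was reached by 5 and 4 members in the fiber libraries, by 108 and 109 in the ovule libraries and by all 200 in both leaf libraries. In fiber, 31 and 30 members were listed at 0. Ranked among the 42214 models with a mean of at least 0.5 FPKM, the median member stood at the 25.4th percentile in fiber, the 70.7th in ovule and the 95.7th in leaf. The highest member in fiber stood at the 92.4th percentile, and the lowest member in leaf at the 81.2nd percentile.

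Summed over the 200 members, the share of all FPKM of a library was 0.0419% and 0.0446% in fiber, 0.485% and 0.51% in ovule and 3.17% and 2.97% in leaf. The order of these shares follows from the rule, and their means were 0.0433% ± 0.00195 in fiber, 0.498% ± 0.0178 in ovule and 3.07% ± 0.14 in leaf (SD, n = 2). A single model, Cotton_A_20009, held 20.5% and 15.3% of the summed FPKM of members in the leaf libraries. Without it the shares were 0.0384% ± 0.000567 in fiber, 0.396% ± 0.0091 in ovule and 2.52% ± 0.00177 in leaf (SD, n = 2).

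**Figure D1:**
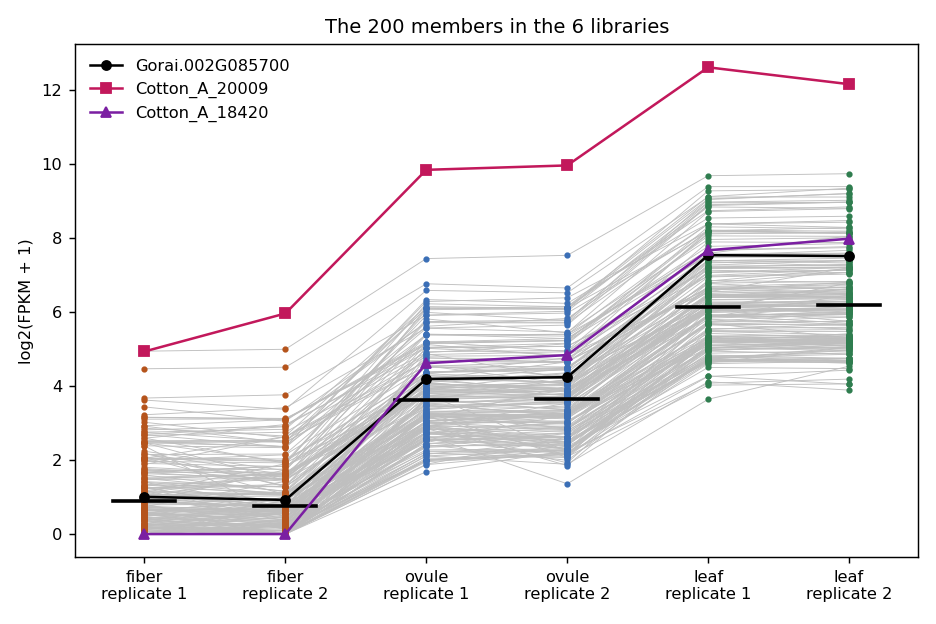
Expression of the 200 members as log2(FPKM + 1), with 1 point per member and library, grey lines joining the libraries of a member and black bars at the median of each library. The medians lie near 0.869 and 0.681 FPKM in fiber and 69.6 and 72.1 FPKM in leaf, and the 3 coloured lines are the member of rank 1 (Gorai.002G085700), the most abundant member (Cotton_A_20009) and a member listed at 0 in fiber (Cotton_A_18420).

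The leading members combined steps of nearly 10-fold on both sides of the ovule. Gorai.002G085700, the member of rank 1, had 1.01 and 0.898 FPKM in fiber, 17.3 and 17.9 FPKM in ovule, and 186 and 183 FPKM in leaf. Its libraries fell into 3 tight pairs, with an ovule over fiber ratio of 9.53 and a leaf over ovule ratio of 9.95. On the scale of log2(FPKM + 1), fitted with limma, the difference of fiber minus ovule was -3.25 (SE 0.081) and that of ovule minus leaf -3.32 (SE 0.081).

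Gorai.009G224100, at rank 2, had 5.04 and 2.77 FPKM in fiber, 62.9 and 53.7 FPKM in ovule, and 529 and 594 FPKM in leaf. Cotton_A_15000, at rank 3, had 4.52 and 4.69 FPKM in fiber, 68.1 and 66.4 FPKM in ovule, and 622 and 639 FPKM in leaf. In both, the tissues were separated by gaps much wider than the replicate gap, which was largest between the fiber libraries of Gorai.009G224100. Gorai.010G088500 had 3.72 and 2.29 FPKM in fiber, 52.8 and 54.3 FPKM in ovule, and 498 and 502 FPKM in leaf. Gorai.004G125000 had 1.84 and 1.24 FPKM in fiber, 29.5 and 30.3 FPKM in ovule, and 282 and 281 FPKM in leaf. These 5 leading members had leaf over ovule ratios from 9.13 to 9.95 and ovule over fiber ratios from 9.53 to 13.6.

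The next 3 were less abundant. Cotton_A_04378 stood at 0 in both fiber libraries, and had 11.4 and 17.2 FPKM in ovule, and 134 and 140 FPKM in leaf. Gorai.011G289600 had 0.33 and 0.253 FPKM in fiber, 9.81 and 10.9 FPKM in ovule, and 103 and 110 FPKM in leaf. Cotton_A_19803 had 0.304 and 0.158 FPKM in fiber, 11.7 and 12.1 FPKM in ovule, and 110 and 113 FPKM in leaf. All 3 lay near or above 100 FPKM in leaf, and none exceeded 0.33 FPKM in fiber.

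The smaller ratio was at least 7 in 21 members, between 5 and 7 in 58 and under 5 in 121. The 13 members at ranks 9 to 21 had means of up to 5.98 FPKM in fiber, 10.3 to 71.9 FPKM in ovule and 84.9 to 607 FPKM in leaf. The median leaf level was 188 FPKM in the 21, 76.4 FPKM in the 58 and 54.7 FPKM in the 121, and nothing is read from this order, since the ratios of FPKM + 1 chose the members and are limited by level. At the lower edge, Cotton_A_21681 (rank 199) and Gorai.004G085600 (rank 200) had smaller ratios of 3.8899 and 3.8867, and the first models outside, Gorai.013G103300 and Cotton_A_03916, had 3.886 and 3.8806. Gorai.013G103300, just outside, had 4.55 and 2.88 FPKM in fiber, 18.9 and 15.7 FPKM in ovule, and 132 and 140 FPKM in leaf. At the upper limit on leaf over ovule, Cotton_A_22373 was inside at 9.97 and Cotton_A_39436 was outside at 10.1.

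Neither step was the larger one throughout. The leaf over ovule ratio was the larger step in 105 members and the ovule over fiber ratio in 95, with medians of 5.86 and 5.65. This near balance held for FPKM as deposited and with the upper limit on leaf over ovule. The medians were 9.14 and 4.36 with median-of-ratios scaling and 7.75 and 4.15 after quantile normalization. Over the 200 highest models chosen without the upper limit, they were 21.8 and 7.67. In 32 members the steps were over 2-fold apart, with ovule over fiber the larger in 23 of these. The rule set no upper limit on ovule over fiber, so this split and the near balance are descriptions only. Without the added 1 FPKM, the fiber mean was 6.68% of the ovule mean in the median member, and the ovule mean was 15.5% of the leaf mean. The ovule level reached at most 25.1% of the leaf level in any member, and the fiber level at most 23.4% of the ovule level.

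The members most uneven toward leaf were Cotton_A_21681, Gorai.002G118800 and Cotton_A_33522. Cotton_A_21681 had 6.63 and 7.54 FPKM in fiber, 34.0 and 26.9 FPKM in ovule, and 294 and 313 FPKM in leaf. Gorai.002G118800 had 3.17 and 3.08 FPKM in fiber, 15.1 and 15.4 FPKM in ovule, and 147 and 149 FPKM in leaf. Cotton_A_33522 had 7.94 and 7.74 FPKM in fiber, 32.2 and 34.8 FPKM in ovule, and 317 and 305 FPKM in leaf. Their leaf over ovule ratios were 9.68, 9.15 and 9.04, against ovule over fiber ratios of 3.89, 3.94 and 3.90.

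The members most uneven toward fiber were Gorai.004G085600, Cotton_A_05294 and Gorai.002G161000. Gorai.004G085600 stood at 0 in both fiber libraries, and had 28.5 and 17.3 FPKM in ovule, and 87.0 and 96.7 FPKM in leaf. Cotton_A_05294 had 2.30 and 2.38 FPKM in fiber, 66.2 and 67.8 FPKM in ovule, and 291 and 282 FPKM in leaf. Gorai.002G161000 had 0.669 and 1.69 FPKM in fiber, 40.8 and 41.4 FPKM in ovule, and 183 and 185 FPKM in leaf. In these 3 the ovule over fiber ratio was 23.9, 20.4 and 19.3, while the leaf over ovule ratio was 3.89, 4.23 and 4.39. For Gorai.004G085600 the first of these is set by the 1 FPKM added to its fiber mean of 0.

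**Figure D2:**
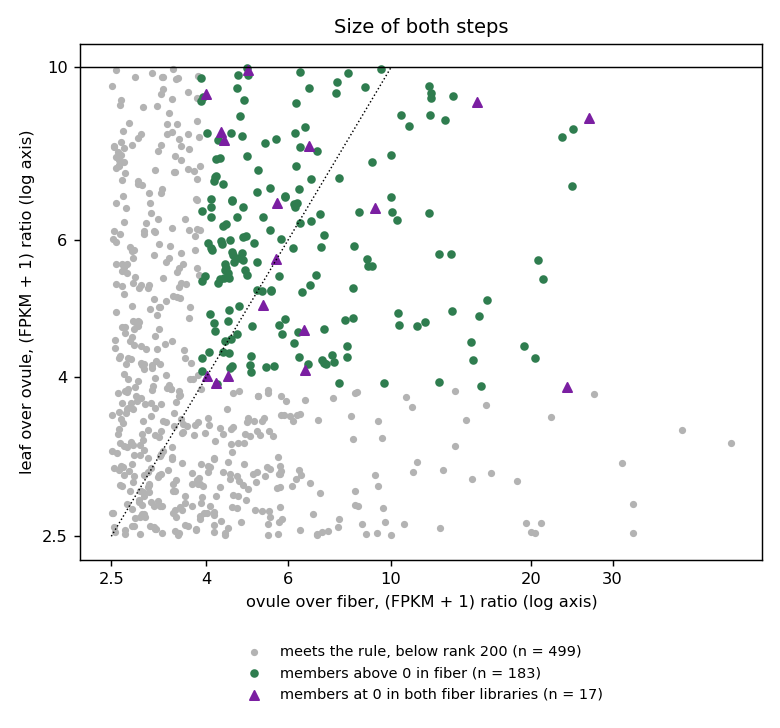
Both ratios of FPKM + 1 for the 200 members and the 499 further models that met the rule, on log axes, with the ovule over fiber ratio across and the leaf over ovule ratio up. Members start at 3.89 on both axes, no model lies above the upper limit of 10 (solid line), and points lie on either side of the line of equal steps (dotted).

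The most abundant member was Cotton_A_20009, with 29.7 and 61.6 FPKM in fiber, 924 and 1004 FPKM in ovule, and 6321 and 4608 FPKM in leaf. It was at the same time one of the less certain members, because these values corresponded to 1 and 2 reads in fiber, 27 and 25 reads in ovule, and 150 and 113 reads in leaf. Reads here are the smallest whole numbers that explain the FPKM values of a model in all libraries, given the relative depth of the libraries, and are lower bounds. Cotton_A_07862, the next in leaf, had 29.9 and 31.0 FPKM in fiber, 174 and 185 FPKM in ovule, and 827 and 859 FPKM in leaf. It rested on 65 and 65 reads in fiber, 329 and 298 in ovule, and 1269 and 1362 in leaf. Cotton_A_39780 had 21.2 and 21.8 FPKM in fiber, 108 and 99.994 FPKM in ovule, and 674 and 674 FPKM in leaf. Its recovered reads were the highest of any member in fiber and in leaf, with 149 and 148 in fiber, 660 and 520 in ovule, and 3339 and 3452 in leaf. A further member with fiber expression, Cotton_A_26206, had 11.8 and 12.6 FPKM in fiber, 59.8 and 64.3 FPKM in ovule, and 504 and 522 FPKM in leaf. The fiber mean was at least 10 FPKM in 5 members, at least 5 FPKM in 20 and under 1 FPKM in 116.

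At the other end, the lowest members in leaf were Cotton_A_01648, Cotton_A_15631 and Gorai.001G022700. Cotton_A_01648 stood at 0 in both fiber libraries, and had 3.33 and 2.70 FPKM in ovule, and 16.4 and 13.9 FPKM in leaf. Cotton_A_15631 stood at 0 in both fiber libraries, and had 3.14 and 3.26 FPKM in ovule, and 15.3 and 15.7 FPKM in leaf. Gorai.001G022700 had 0.122 and 0 FPKM in fiber, 2.67 and 3.63 FPKM in ovule, and 15.9 and 17.3 FPKM in leaf. In such members the ovule over fiber ratio cannot exceed the ovule mean plus 1, whatever the fiber level is.

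This ceiling is less narrow in abundant members, and the rule used both ratios, so their values by leaf level are a description only. The median ovule over fiber ratio was 4.54 in the 70 members under 50 FPKM in leaf, 6.31 in the 95 members between 50 and 200 FPKM and 9.11 in the 35 members at or above 200 FPKM. The median leaf over ovule ratio was 5.35, 6.08 and 6.83 in the same groups. Without the added 1 FPKM the fiber step ran the other way across these groups. The fiber mean was 3.66%, 8.36% and 8.73% of the ovule mean in the median member of the same groups. A lower limit on ratios of FPKM + 1 admits only smaller fiber shares at low ovule levels, so nothing is read from this order.

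Fiber values rested on the fewest reads. Reads were recovered for 155 of the 200 members (77.5%). The median over both libraries of a tissue was 11 reads in fiber, 158 in ovule and 908 in leaf. Of the 155, 17 had 0 reads in fiber, 51 had 1 to 9, 60 had 10 to 49 and 27 had 50 or more. In ovule, 150 had 10 or more reads and 105 had 100 or more. The fiber libraries were nevertheless the deepest, with relative depths of 1 and 0.964 in fiber, 0.867 and 0.74 in ovule and 0.704 and 0.728 in leaf.

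In 17 members both fiber libraries were listed at 0, and in another 27 members 1 of them was. The 17 had a median of 22 reads in ovule and 195 in leaf, against medians of 196 and 1054 in the 138 recovered members that were above 0 in fiber. Cotton_A_18420, the highest of the 17 in leaf, had 23.6 and 27.7 FPKM in ovule, and 204 and 253 FPKM in leaf. Its ovule over fiber ratio of 26.7 was the largest of all members, but is set by the 1 FPKM added to a fiber mean of 0, and it rested on 1 and 1 reads in ovule and 7 and 9 reads in leaf. Cotton_A_04378 rested on 7 and 9 reads in ovule and 67 and 72 in leaf, and Gorai.004G085600 on 27 and 14 in ovule and 67 and 77 in leaf. By contrast, Gorai.002G085700 had 7 and 6 reads in fiber, 104 and 92 in ovule, and 907 and 923 in leaf.

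**Figure D3:**
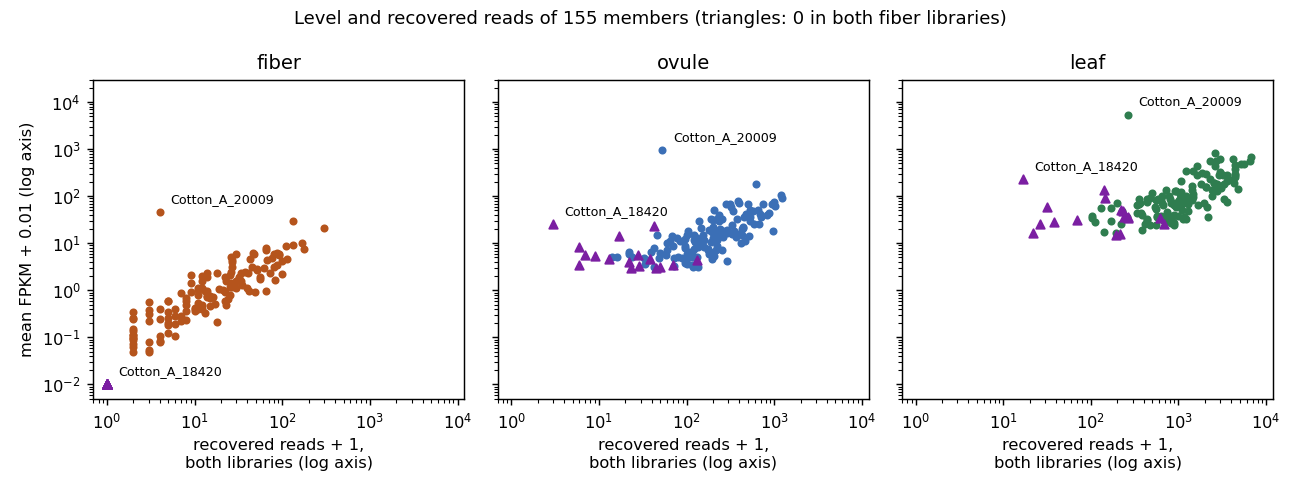
Mean FPKM plus 0.01 of a tissue against recovered reads plus 1 over both of its libraries, for the 155 members with recovered reads, on log axes, with fiber, ovule and leaf in separate panels. Triangles are the 17 members at 0 in both fiber libraries, and Cotton_A_20009 stands above the other points because each of its reads is worth more FPKM.

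Members at 0 in fiber were mostly A-genome models, 15 of 105, against 2 of 95 D-genome models (14.3% and 2.11%). Among tested models whose ovule mean lay within the range of the members, the shares were 3.69% of 12790 A-genome models and 1.75% of 13215 D-genome models. The members were selected on low fiber values and these models were not, so nothing is read from the difference between the 2 sets. One read was worth more in A-genome members, with a median of 0.158 FPKM per read of fiber replicate 1 in the 104 recovered A-genome members and 0.0854 in the 51 recovered D-genome members. In all tested models these medians were 0.0913 and 0.0647. FPKM per read falls with the length of a model, and its part in the zeros was not tested.

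Replicates of the members were close, most of all in leaf. The median difference between replicates on the log2(FPKM + 1) scale was 0.163 in fiber, 0.128 in ovule and 0.0715 in leaf, compared with 0.114, 0.133 and 0.142 in all tested models. The tested models had not passed the rule and were not matched to the members in level, so nothing is read from this comparison. The rule allowed no overlap between neighbouring tissues and took the widest steps, so gaps between tissues are a description only. In 198 members the smallest gap between libraries of neighbouring tissues was wider than the largest gap between replicates, and in 139 it was over 5 times as wide. The exceptions were Cotton_A_05378 and Cotton_A_19501. Cotton_A_05378 had 4.21 and 0.364 FPKM in fiber, 16.2 and 12.8 FPKM in ovule, and 64.8 and 110 FPKM in leaf, from 12 and 1, 40 and 27, and 130 and 228 reads. Cotton_A_19501 stood at 0 in both fiber libraries, and had 5.35 and 1.57 FPKM in ovule, and 11.5 and 22.3 FPKM in leaf, from 4 and 1 reads in ovule and 7 and 14 in leaf. A similar model, Cotton_A_05065, stood at 0 in both fiber libraries and had 12.7 and 3.73 FPKM in ovule and 66.6 and 53.0 FPKM in leaf, from 4 and 1 reads in ovule and 17 and 14 in leaf. In these 3 models the libraries of a tissue differed by up to 1.93 on the log2 scale.

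All 6 libraries helped to choose the 200 members, so no FPKM value is independent of that choice. To read a library against a choice it had no part in, the rule was run without each library in turn, and the left-out library was then read. With fiber replicate 1 left out, that library lay below both ovule libraries in 200 of the 200 chosen models, against 59.1% of all tested models, and with fiber replicate 2 left out in 200 of 200, against 59.3%. With ovule replicate 1 left out, that library lay between the fiber and the leaf libraries in 199 of 200, against 15.8% of all tested models, and with ovule replicate 2 left out in 197 of 200, against 15.7%. With leaf replicate 1 left out, that library lay above both ovule libraries in 200 of 200, against 29.8%, and with leaf replicate 2 left out in 200 of 200, against 30.1%. Between 171 and 191 of the models chosen in a run were also among the 200 members, so the runs overlap, and each left-out library is independent only of the choice made in its own run. Each run still chose on the other replicate of the same tissue and took wide steps, for which the tested models were not selected. The counts therefore describe how closely replicates repeat each other, and nothing further is read from them.

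The size of the steps in left-out libraries was close to that in the libraries used for the choice. Both ratios of a pair shared the means of the other tissues, on which the models were chosen. Part of this closeness is therefore built in, and only the left-out value itself is new. The median ovule over fiber ratio was 5.46 in the left-out fiber replicate 1, against 5.79 in the libraries that chose, and 5.74 against 5.68 for fiber replicate 2. The median leaf over ovule ratio was 5.69 against 5.77 for leaf replicate 1 and 6.13 against 5.90 for leaf replicate 2. For the ovule libraries the median smaller ratio was 4.54 against 4.79 and 4.68 against 4.66. Of the 1200 choices over the 6 runs, 17 had a left-out ratio under 2.5, and 4 of them were out of order. These 4, Cotton_A_13122, Cotton_A_03719, Cotton_A_13123 and Cotton_A_13952, were each listed at 0 in the left-out ovule library and had 1 read in the other ovule library. They were also at 0 in both fiber libraries, so the rule on all 6 libraries could not admit them among the 200 members.

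**Figure D4:**
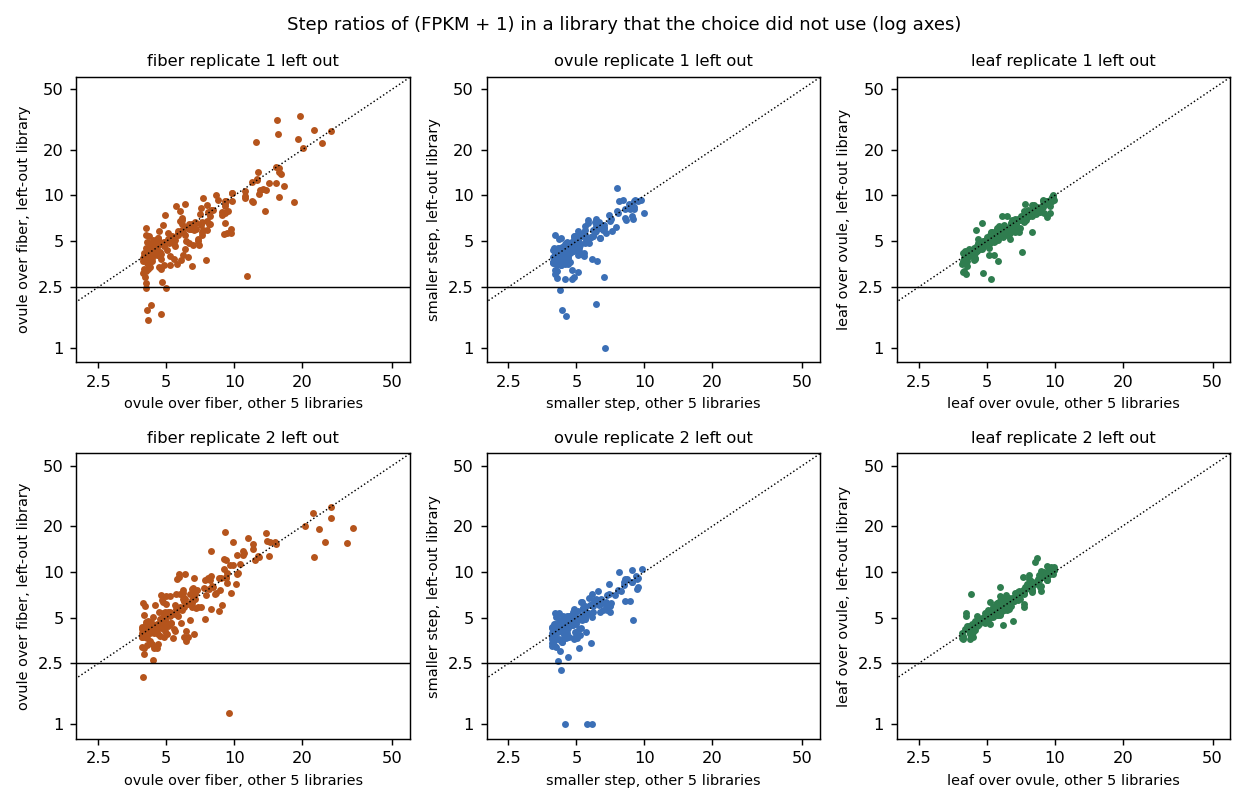
Ratio in a left-out library (vertical) against the ratio in the other 5 libraries (horizontal) for the 200 models chosen without it, on log axes, with fiber, ovule and leaf libraries in columns. Points lie along the line of equality (dotted), in part because both axes share the means of the other tissues. Under 2.5 (solid line) lie 17 of 1200, none of them in a leaf panel, where the lowest ratios were 2.81 and 3.62.

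For comparison with the whole table, both contrasts were fitted with limma on log2(FPKM + 1) over 42214 models, and models were called where the Benjamini-Hochberg adjusted p was under 0.01 and the difference exceeded 2-fold. In the fiber relative to the ovule (FO), 198 of the 200 members were called lower, beside 33.5% of all tested models. In the ovule relative to the leaf (OL), 198 of 200 were called lower, beside 15.7% of all tested models. The study called genes at P under 0.01 in an analysis of variance and a difference above 2-fold. These criteria were applied here to log2(FPKM + 1) of the same models, without adjustment or moderation. By them 153 members were called lower in FO, beside 24.3% of all tested models, and 181 in OL, beside 11.4%. The members not called by limma in either contrast were Cotton_A_05378 and Cotton_A_19501. The rule used both contrasts, so nothing is read from these counts. The median log2 difference of the members was -2.49 in FO and -2.56 in OL, beside -0.42 and 0.48 over all tested models.

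The identifiers were not used by the rule. A-genome models made up 105 of the 200 members, or 52.5% (95% Wilson interval 45.6% to 59.3%), against 48.8% of the tested models. The share was 50.3% in the 499 models that met the rule below the members and 52.0% in the 452 models that met all conditions except that leaf exceeded ovule by over 10-fold. Both prefixes had similar levels, with medians of 0.731 FPKM in fiber, 12.02 FPKM in ovule and 72.3 FPKM in leaf for A-genome members, and 0.779, 10.1 and 71.3 FPKM for D-genome members. The median leaf over ovule ratio was 5.70 and 5.88, and the median ovule over fiber ratio 6.16 and 5.00, for A-genome and D-genome members.

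The places of D-genome members in the identifier series were counted. Gorai identifiers hold a number field from 1 to 13 and a running number within it, and members occurred in all 13 fields. They numbered from 4, in fields 5, 8 and 12, to 12 in field 4, or from 0.214% of the tested models of field 8 to 0.688% of those of field 4. Over all fields, 95 of 21598 tested D-genome models were members. No members followed each other directly in identifier order. In 3 cases members stood within 10 places, the nearest being Gorai.011G177300 and Gorai.011G178100 at 8 places. The numbers of A-genome identifiers were 1 apart in 0 cases and within 10 in 2, and whether these numbers follow the genome was not known. How many such pairs a random set would hold was not computed, so nothing is read from these spacings.

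In the median, a read of a member was worth more FPKM than in the table as a whole, though the ranges overlapped. The median was 0.124 FPKM per read in the 155 recovered members, 0.106 in 362 recovered models of the 499 below them and 0.136 in 338 recovered models with leaf over ovule above 10, against 0.0816 in 27751 recovered tested models. The quartiles were 0.0820 and 0.231 in the members and 0.0508 and 0.147 in the tested models. Recovery depended on the prefix, with 104 of 105 A-genome members but 51 of 95 D-genome members recovered, so these medians rest mainly on A-genome models. The same held for the tested models, with 19426 A-genome and 8325 D-genome models recovered.

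How many members kept to the rule depended on scaling and on the pseudocount more than on any library. Leaving out 1 library kept 190 to 200 members within all conditions. With median-of-ratios scaling 120 members still met every condition and with quantile normalization 157. All 80 and all 43 members that dropped out did so because their leaf over ovule ratio came to lie above 10, and in 0 members was the order of the libraries lost. Choosing 200 models anew, 75 of those chosen with median-of-ratios scaling and 105 of those chosen with quantile normalization were among the members, and 50 of those chosen without the upper limit were. With pseudocounts of 0.1 and 5 FPKM, 92 and 108 of the models chosen anew were members. With a pseudocount of 5 FPKM, 109 members still met the rule, because a step of the other 91 came to lie under 2.5.

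**Figure D5:**
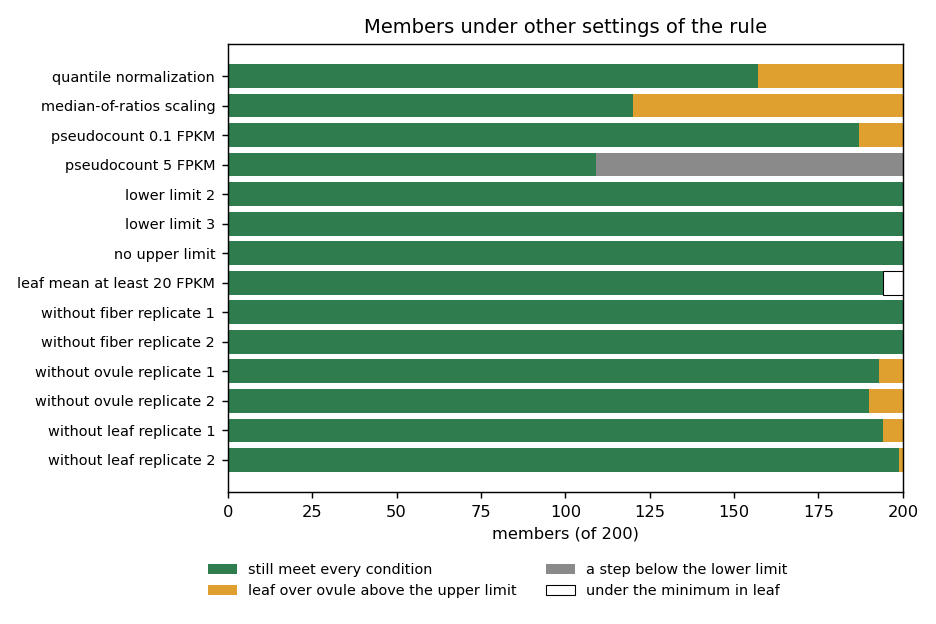
Members that still met every condition of the rule under other settings, as bars of 200 members each, with the reason for dropping out in colour. Median-of-ratios scaling kept 120 and quantile normalization 157, with the rest above the upper limit of 10 on leaf over ovule, while a pseudocount of 5 FPKM kept 109.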

How the data were processed

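The authors deposited FPKM values with 1 column per library. Per the methods of the study, Tophat aligned the strand-specific reads to a TM-1 genome sequence, unique alignments were kept and Cufflinks gave abundance over annotated genes, all with versions not given in the sources used here. The submitters' processing notes name CASAVA 1.8. FPKM is a share of the library total, so abundant transcripts lower all other values, and near-identical homoeologs can lose reads. The identifiers in the table differ from those in the study's text, and the annotation behind them was not resolved.

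The rule was applied to the FPKM values as deposited, with Python 3.11.15, numpy 2.4.6 and pandas 2.3.3. Members, lists and alternatives were chosen with earlier results of these data known. Models with a mean of at least 0.5 FPKM over the 6 libraries (42214) were fitted with limma 3.58.1 in R 4.3.3 on log2(FPKM + 1), with a variance trend, robust moderation and Benjamini-Hochberg adjustment. Changes on this scale understate those of low values. The limma fit and the recovery of reads were tried on simulated data. For the reads, the relative depths were supplied and reads were compared up to a common factor. Reading depth from the values was therefore not tested.

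Mapped totals are not in the table. Depth was first read from the most common ratio between libraries among values under 1 FPKM. It was then refined on whole reads of a part of the models above 0 in every library. The smallest reads that explained each model were sought within 0.05 of a read, then 0.01, at a chance of a false match of at most 0.001. Reads were recovered for 62.9% of models above 0 in 2 or more libraries. They and the Wilson interval cover counting error only. Named members were the extremes of rank, level, step and replicate difference, those at the edges of the set, and those at 0 in fiber that were highest in leaf. No exact permutation test is given, because the rule fixed the order of all libraries.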

Additional observations from a re-analysis of the deposited data

How the results depend on the processing

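Members that still met the rule numbered 120 with median-of-ratios scaling and 109 with a pseudocount of 5 FPKM. Models that met the rule, 699 as deposited, numbered 1565 and 203 with a pseudocount of 0.1 and 5 FPKM, 1270 and 422 with a lower limit of 2 and 3, and 1151 without the upper limit. The median ovule over fiber and leaf over ovule ratios of members were 4.36 and 9.14 with median-of-ratios scaling, 4.15 and 7.75 after quantile normalization, 13.3 and 6.41 with a pseudocount of 0.1 FPKM, and 2.61 and 4.55 with 5 FPKM. They were 7.67 and 21.8 over the 200 highest models without the upper limit. Over the 150 members with at least 10 recovered ovule reads, an alternative chosen after seeing the data, the median ovule over fiber ratio was 5.92 and the A-genome share 66.0%, with reads recovered for 104 of 105 A-genome and 51 of 95 D-genome members. The factors of median-of-ratios scaling were 0.925 and 0.918 in fiber, 1.30 and 1.28 in ovule, and 0.795 and 0.809 in leaf, which by construction lowers ovule against both other tissues. The median log2 difference of all tested models was -0.42 in FO and 0.48 in OL as deposited, -0.08 and 0.00 after median-of-ratios scaling, and 0.00 and 0.12 after quantile normalization. Leaving out 1 library in turn, the median ovule over fiber ratio ranged from 5.57 to 5.89 and the median leaf over ovule ratio from 5.78 to 6.04. Without the filter on low values, 17.6% of all models were called lower in FO and 8.37% in OL. The replicate block left 198 members called lower in FO and 197 in OL. Differences between replicates 1 and 2 correlated across tissues at 0.05 (fiber and ovule), -0.0589 (fiber and leaf) and -0.0562 (ovule and leaf). Whether same-numbered libraries share a plant or harvest cannot be told from these values. Of 600 values of 25 named members under alternatives, 573 stayed as in the main fit, called or not called. A call was lost in 18 and gained in 9, and 0 changed sign. All of these changes were in Cotton_A_20009, Cotton_A_05065, Cotton_A_05378, Cotton_A_19501 and, by the thresholds of the study as applied here, Gorai.004G085600. Cotton_A_05378 and Cotton_A_19501 had no call in the main fit to keep. Nothing is read from this stability, since the rule used both contrasts. The fiber step rested on few reads, as 68 of 155 members with recovered reads had under 10 reads in fiber.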
